A study of Mus musculus with 8 samples.

Results

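Undigested brain vessels were the mechanically isolated vessel fraction of the mouse brain, here taken alone and described by which genes gave the highest array signal and which genes varied most between preparations. The members were the 4 arrays titled as undigested brain vessels, of 8 arrays in the series. The other 4 carried vessels submitted to enzymatic digestion and were not used. The study set up these preparations to find astrocyte transcripts held in perivascular endfeet, the astrocyte tips that stay on purified vessels. All 4 undigested arrays had the same labels: male C57Bl6 mice aged 2 months, with no mutant allele, no transgene and no treatment named. Per the study's methods each array was an independent library from vessels pooled from 4 mice, so an array stands for a pool and not for an animal. No label gives a preparation day, a litter or a time of day, and array numbers 1 to 4 are names without order.

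The vessel wall of the brain is built from endothelial cells, whose tight junctions and transporters form the blood-brain barrier, from pericytes on capillaries and smooth muscle cells on arterioles, and from a basal lamina on which astrocyte endfeet sit. Around larger vessels, fibroblasts and macrophages lie in the perivascular space. The choroid plexus, a vessel tuft covered by an epithelium that secretes cerebrospinal fluid, the ciliated ependyma that lines the ventricles, the meninges and the pituitary gland all touch vessel-rich tissue and can enter a vessel fraction. In bulk RNA, fewer cells of a type and less RNA per cell cannot be told apart.

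Among the genes that varied most were small RNA genes, and 2 sets of them are shown by sequence because they moved as blocks across the arrays. The first set lies inside genes of the choroid plexus: Mir1264, Mir1912 and Mir1298 lie within Htr2c, the serotonin 2C receptor gene on chromosome X, and Mir204 lies within the channel gene Trpm3 on chromosome 19. All 4 were higher on arrays 3 and 4. The mature sequences are from RefSeq (GRCm38.p6), with the seed (bases 2 to 8) in capitals. The miR-1264-3p sequence is at chrX:147010655-147010676 and miR-204-5p at chr19:22750610-22750631, both on the plus strand.
mmu-miR-1264-3p: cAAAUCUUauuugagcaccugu
mmu-miR-1912-3p: cACAGAACaugcagugagaacu
mmu-miR-1298-5p: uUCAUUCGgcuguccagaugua
mmu-miR-1298-3p: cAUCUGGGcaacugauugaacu
mmu-miR-204-5p: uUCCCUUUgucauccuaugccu
mmu-miR-204-3p: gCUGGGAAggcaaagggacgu
The second set is 7 miRNA genes of chromosome 12, each with its lowest value on array 3, from miR-341-3p at chr12:109611556-109611576 to miR-377-3p at chr12:109740553-109740574 (plus strand). One mature arm of each is shown.
mmu-miR-341-3p: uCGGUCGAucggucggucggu
mmu-miR-380-3p: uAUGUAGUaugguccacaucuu
mmu-miR-376b-3p: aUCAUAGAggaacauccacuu
mmu-miR-300-3p: uAUGCAAGggcaagcucucuuc
mmu-miR-154-3p: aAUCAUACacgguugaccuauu
mmu-miR-496a-3p: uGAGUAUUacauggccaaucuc
mmu-miR-377-3p: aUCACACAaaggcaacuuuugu
No seed is shared within either set. In all, 21 miRNA genes had a range of at least 1 over the arrays, 20 of them with mature sequences, and among their 37 mature sequences there were 36 seeds. The 1 seed in common was that of let-7c-5p, which 2 let-7c genes encode. The array reads the transcript of a miRNA gene and does not measure the mature miRNA.

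Each array held 41345 transcript clusters with values on a log2 scale. The array medians were 5.66 to 5.71 and the highest values 13.52 to 13.57. Keeping the cluster of highest mean for each gene with a single symbol left 22180 genes, of which 16142 (72.8%) had a mean above a background floor of 4.73, the 90th percentile of 1400 olfactory and vomeronasal receptor clusters. The Y-linked genes Uty, Kdm5d and Eif2s3y lay above the floor (7.46 to 8.67 over the arrays) and the female-specific RNA Xist at 3.29 to 3.70, below it, on all 4 arrays. Probes differ in affinity, so a rank below is a rank of array signal and not of transcript copies. A percentile is the share of the 22180 genes with a mean at or below that gene's mean. As all 4 arrays form 1 group, there is no comparison to test and no p-value is given.

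Among the highest signals were genes of the mitochondrial genome, non-coding RNAs, the choroid plexus gene Ttr and the barrier gene Slc2a1. Of the 20 genes of highest level, 9 were encoded by the mitochondrial genome, among them ND4 (13.40 ± 0.03, mean ± SD, n = 4), a subunit of complex I, and COX1 (13.19 ± 0.07). Rn7sk, the small nuclear RNA that restrains transcription elongation, ranked first at 13.51 ± 0.02. Ttr, the transthyretin gene of the choroid plexus, ranked 3 at 13.31 ± 0.13, and Ptgds, a prostaglandin D synthase gene of meninges and perivascular fibroblasts, ranked 14 at 12.85 ± 0.10. Slc2a1, the glucose transporter gene of the blood-brain barrier, ranked 17 at 12.65 ± 0.09. Slc2a1 and Eif4a1 (rank 4) owe their ranks to 1 of several clusters, since the means over all their clusters were 9.40 and 10.29. The first place of Rn7sk also depends on the cluster, as the mean over its clusters was 13.35, below the 13.40 of ND4. These levels lie close to the highest values on the arrays, and saturation was not tested.

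Just below them stood the leading genes of each vascular cell type. Rgs5, a regulator of G protein signalling in pericytes, ranked 21 with values of 12.63, 12.60, 12.48 and 12.33 on arrays 1 to 4, and Acta2, the smooth muscle actin gene, ranked 22 with 12.40, 12.36, 12.66 and 12.48. Sparcl1, a secreted glycoprotein gene of astrocytes and endothelium, ranked 24. The endothelial phosphatase gene Ptprb (rank 49) and the VEGF receptor gene Flt1 (rank 54) led the general endothelial list. The ranking held between preparations. Of the 20 genes of highest level on an array, 18 were in that set on all 4 arrays, and 78 of the first 100 and 1326 of the first 1614 (82.2%) likewise.

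Vascular marker genes filled the upper part of the ranking, as the plot of marker levels shows. General endothelial genes had a median percentile of 97.3 (36 measured, 27 of them among the 1614 highest genes, the top 10% of those above background), barrier transport genes 95.8 (22 of 28 in the top 10%), pericyte genes 96.4 (12 of 21), smooth muscle genes 93.4 (14 of 25) and perivascular fibroblast genes 94.5 (17 of 32). Markers of larger vessels were near these, with 91.1 for arterial and 91.3 for venous endothelium. The endothelial cadherin gene Cdh5 stood at 11.49, 11.42, 11.29 and 11.12, the efflux pump gene Abcb1a at 11.51, 11.39, 11.04 and 10.87, and the PDGF receptor gene Pdgfrb of mural cells at 10.50, 10.69, 10.70 and 10.40. Defining markers of the labelled tissue were thus high on every array.

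**Figure D1:**
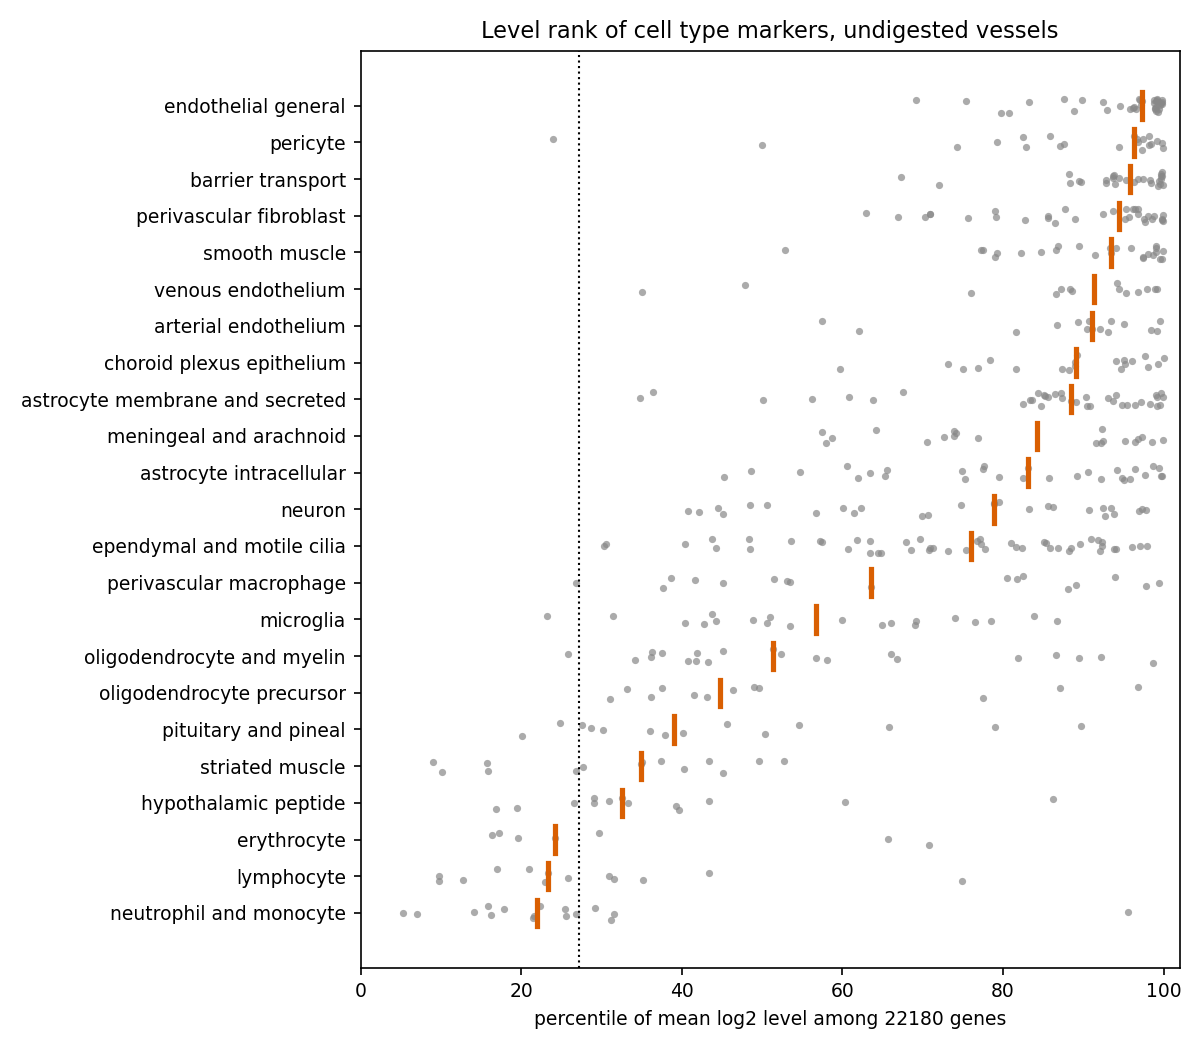
Level rank of 23 cell type marker lists. The x axis is the percentile of a gene's mean log2 level among 22180 genes, each grey point is 1 measured gene, the orange bar is the list median and the dotted line is the background floor (percentile 27.2). General endothelial genes have a median percentile of 97.3, and neutrophil and monocyte genes one of 22.0.

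Next came lists of choroid plexus, astrocyte, meningeal, neuronal and ependymal genes. The choroid plexus list had a median percentile of 89.1 (20 measured), astrocyte genes for membrane and secreted proteins 88.5 (37), meningeal genes 84.3 (20), astrocyte genes for intracellular proteins 83.1 (29), neuronal genes 78.9 (27) and ependymal and motile cilia genes 76.0 (48). All measured members of these 6 lists lay above background. Perivascular macrophage genes had a median of 63.6 and microglia genes one of 56.7, close to genes of mature oligodendrocytes (51.3). The microglial genes Tmem119 (6.14 to 6.28) and P2ry12 (6.19 to 6.68) and the myelin gene Mog (5.57 to 5.93) stood above the floor on every array, at percentiles of 50.6, 53.4 and 41.9.

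Blood cells were near the floor. Of 16 neutrophil and monocyte genes measured, 4 lay above background, as did 5 of 13 lymphocyte genes and 3 of 7 erythrocyte genes (the globin genes were not analysed here). S100a8, the calprotectin gene of neutrophils, was at 2.58 to 2.99 and Cd3e of T cells at 4.29 to 4.70. The monocyte gene Ly6c2 stood at 8.97 to 9.64, but its sequence is close to that of the endothelial gene Ly6c1, and the array may not separate them. Of 22 neighbouring pairs in the order of the 23 lists, 19 had list medians that overlapped over the arrays. The 3 that did not were endothelial above pericyte genes, striated muscle above hypothalamic peptide genes, and these above erythrocyte genes.

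The astrocyte genes that the study names were spread from the middle to the top of the ranking. Gja1, the connexin 43 gene, was at 9.62 ± 0.18 (percentile 97.2, n = 4), Gfap, the astrocyte intermediate filament gene, at 9.14 ± 0.15 (94.8), and Aqp4, the water channel gene of endfeet, at 8.99 ± 0.31 (93.7). The transcription factor gene Sox9 was at 8.81 ± 0.26 (92.2), the potassium channel gene Kcnj10 at 8.08 ± 0.15 (83.4), Aldh1l1 at 6.87 ± 0.30 (62.0) and the Notch target gene Hes5 at 5.88 ± 0.15 (45.3). The arrays do not tell which cell a transcript came from, and Glul (11.40 ± 0.10), Vim (11.80 ± 0.11) and Clu (10.60 ± 0.20), which ranked higher, are known from other cells of the vessel wall too.

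For most genes the 4 preparations differed little. The median SD over the 16142 genes was 0.133, the median range (highest minus lowest array) was 0.29, and 26.6% of genes had a range under 0.2. A range of at least 1, a 2-fold difference between the highest and the lowest array, was reached by 211 genes (1.31% of genes above background). Of these, 43 reached 1.5 and 18 reached 2. The gene just inside the threshold had a range of 1.002 and the one just outside 0.999. The median SD was 0.149 in the lowest 10% of genes above background and 0.114 in the highest, while the number of genes with a range of at least 1 was 10 in the lowest 10% and 32 in the highest. The plot of range against level shows the growth hormone gene Gh and the prolactin gene Prl far above all others.

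**Figure D2:**
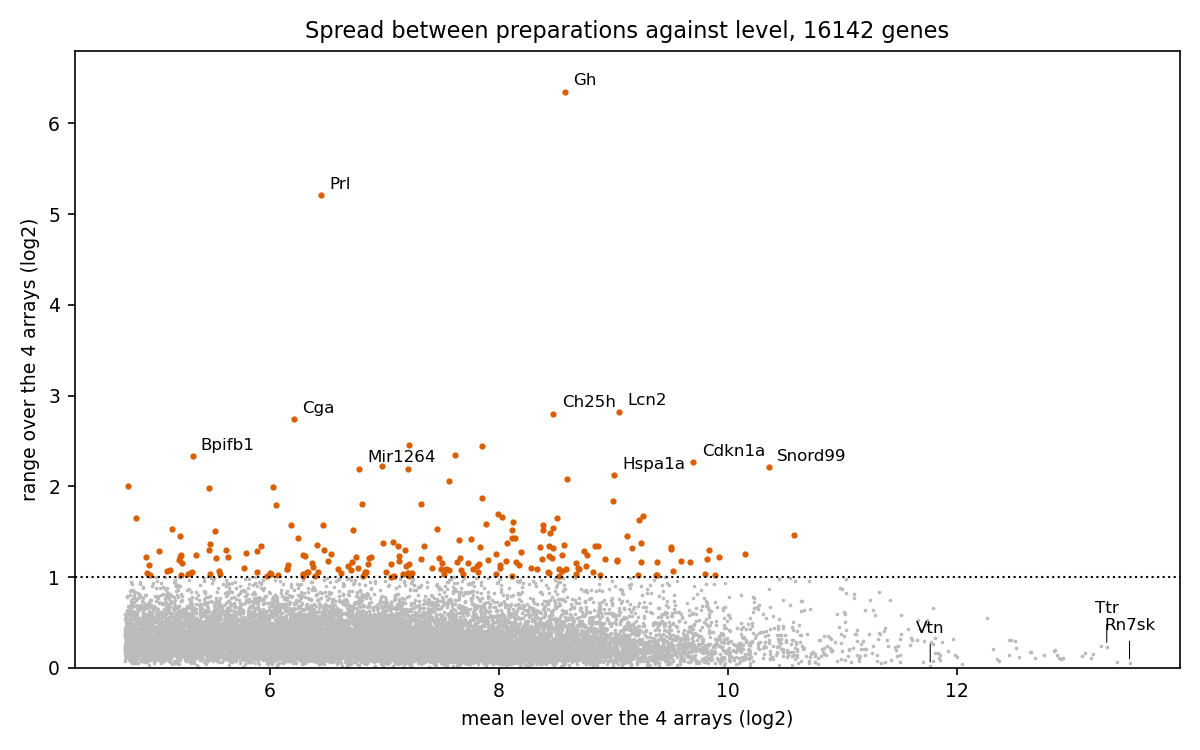
Range over the 4 arrays (log2, y axis) against mean level (log2, x axis) for 16142 genes above background. Orange points are the 211 genes with a range of at least 1 (dotted line). Gh, with a range of 6.35, and Prl, with 5.21, stand apart, and Ttr, Vtn and Rn7sk are high and steady.

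The variable genes followed a few divisions of the arrays. Arrays 1 and 2 were the closest pair (r = 0.993 across 16142 genes, with 4 genes at least 1 apart), then arrays 3 and 4 (r = 0.988, 37 genes), while pairs across these had r = 0.977 to 0.981 and 65 to 125 genes at least 1 apart. Genes are not independent replicates, so these values are a description. Of the 211 genes, 101 (47.9%) had their widest gap between arrays 1 and 2 on one side and arrays 3 and 4 on the other, against 22.7% of all genes above background. Of these, 78 were higher on arrays 3 and 4. Array 3 stood alone in 63 of the 211 genes (29.9%, against 20.9% of all genes), 54 of them low there. Array 4 stood alone in 33 (15.6%, against 17.4% of all genes), 25 of them high there. No label names a division of these arrays, so it is given as a pattern of the values.

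The pituitary hormone genes Gh and Prl had the widest ranges of all genes above background. Gh was at 11.82 and 11.40 on arrays 1 and 2 and at 5.47 and 5.62 on arrays 3 and 4. Prl was at 9.10 and 8.55 against 3.90 and 4.24, the latter under the floor. Both hormones were thus among the more strongly measured genes on arrays 1 and 2. On arrays 3 and 4 Gh stayed above the floor of 4.73 and Prl lay below it. Cga, the gene of the alpha subunit shared by the glycoprotein hormones, was at 7.86, 6.71, 5.12 and 5.16, and Fshb, the beta subunit of follicle stimulating hormone, at 5.95, 4.98, 3.94 and 4.19. The ranges were 6.35 for Gh, 5.21 for Prl, 2.74 for Cga and 2.01 for Fshb, with array 1 highest for each.

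Other genes of the gland did not show this size of spread. Pomc, the precursor of corticotropin, was at 5.81, 5.79, 5.34 and 5.29, Lhb at 6.87, 6.90, 7.32 and 7.20, with arrays 3 and 4 above, and Tshb at 4.43 to 4.80, around the floor. Of the 12 pituitary and pineal genes above background, 10 were lower on both arrays 3 and 4 than on both arrays 1 and 2 (83.3%, against 22.8% of all genes), and 4 had a range of at least 1. The list mean was 6.85, 6.57, 5.41 and 5.43 on arrays 1 to 4. Without the 4 hormone genes named first, the other 8 gave means of 5.94, 5.90, 5.81 and 5.74. Hypothalamic peptide genes, from the tissue above the gland, had 0 of 10 with a range of at least 1. In a list of this size that is near the 1.31% of all genes. Of the same 10, 6 were lower on both arrays 3 and 4 (60%, against 22.8% of all genes).

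The Prl promoter is shown as the more variable hormone gene with a promoter in the RefSeq table, which covers the start and the bases before it (GRCm38.p6, chr13:27057320-27057619, plus strand). Capitals mark matches to TATNCAT on either strand, the type of sequence that POU1F1, the transcription factor of growth hormone and prolactin cells, is known to bind.
Prl promoter: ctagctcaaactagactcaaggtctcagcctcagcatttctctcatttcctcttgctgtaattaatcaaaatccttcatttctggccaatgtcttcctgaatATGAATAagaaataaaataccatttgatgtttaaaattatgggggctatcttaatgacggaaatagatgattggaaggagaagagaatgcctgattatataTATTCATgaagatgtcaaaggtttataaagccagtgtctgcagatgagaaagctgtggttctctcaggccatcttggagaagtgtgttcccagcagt
There were 2 matches, and 8.84% of 32851 promoters of this length hold at least 1. A match is a description of the letters and not a site of binding, and the gene Pou1f1 had no value here.

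By the range of the list mean (0.864) choroid plexus genes came next among the cell type lists, ahead of venous endothelium (0.840), and in the other direction from the pituitary genes. By the median range of their members the venous list was ahead (1.19 against 0.988). All 20 choroid plexus genes measured were higher on both arrays 3 and 4 than on both arrays 1 and 2, a pattern found in 31.1% of genes above background. Of the 20, 10 had a range of at least 1 (50%, against 1.31% of all genes), 5 without array 2 and 6 without array 3. The list mean was 8.52, 8.40, 9.25 and 9.27. Cldn2, the claudin gene of the epithelium's leaky tight junctions, was at 7.03, 6.65, 7.97 and 8.19, and Cldn1 at 7.96, 7.79, 8.76 and 9.27. The carbonic anhydrase gene Car12 was at 8.55, 8.43, 9.62 and 9.53, the folate receptor gene Folr1 at 7.71, 7.38, 8.42 and 8.39, and the ageing-suppressor gene Kl at 10.33, 10.20, 11.15 and 11.16. In each gene the lower of arrays 3 and 4 stood above both arrays 1 and 2. Ttr had the same division in a narrow span, at 13.20, 13.19, 13.43 and 13.43, close to the highest values on the arrays.

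Ciliated, meningeal and fibroblast genes moved the same way by smaller amounts. Of 48 ependymal and motile cilia genes, 45 were higher on both arrays 3 and 4 (93.8%, against 31.1% of all genes), with list means of 7.32, 7.33, 7.85 and 7.77. Dynlrb2, a dynein light chain gene, was at 8.38, 8.16, 9.13 and 9.40, and Foxj1, the transcription factor gene of motile cilia, at 8.09, 8.01, 8.32 and 8.39. Of 20 meningeal and arachnoid genes 18 were higher on both (90%), and of 32 perivascular fibroblast genes 27 (84.4%). These lists share 4 genes, among them Ptgds. The fibroblast growth regulator gene Bmp4 was at 7.46, 7.23, 8.36 and 8.18, and the collagen gene Col1a1 at 8.76, 8.81, 9.25 and 9.15.

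Macrophage genes of the perivascular space followed the same division. Of 16 above background, 14 were higher on both arrays 3 and 4 (87.5%, against 31.1% of all genes). A range of at least 1 was reached by 5 (31.25%, against 1.31% of all genes), by 2 without array 1 and by 3 without array 4. The list mean was 7.05, 7.21, 7.68 and 7.78. Lyve1, a hyaluronan receptor gene of these cells, was at 7.38, 7.28, 8.51 and 8.94, the mannose receptor gene Mrc1 at 8.01, 8.24, 8.82 and 9.02, and the scavenger receptor gene Cd163 at 5.96, 6.11, 6.64 and 6.84. Of 19 microglia genes above background, 13 were higher on both (68.4%, against 31.1% of all genes) and none was lower. The 13 were led by the leukotriene C4 synthase gene Ltc4s (7.27, 6.92, 8.34 and 8.10) and Csf1r, which macrophages share (7.55, 7.87, 8.56 and 8.50). The microglia-restricted Tmem119 was within 0.14 over the arrays and P2ry12 was highest on array 3 and lowest on array 4.

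Astrocyte and neuronal genes were higher on arrays 3 and 4 as well, by less. Of 37 membrane and secreted astrocyte genes 31 were higher on both and 0 lower, as were 22 and 0 of 29 intracellular ones, against 31.1% higher and 22.8% lower of all genes. None of these 66 genes had a range of at least 1, which is near the 1.31% of all genes. Aqp4 was at 8.77, 8.67, 9.23 and 9.28 and Gja1 at 9.43, 9.50, 9.77 and 9.78. Of 27 neuronal genes 19 were higher on both (70.4%, against 31.1% of all genes), with Vsnl1, a neuronal calcium sensor gene, at 8.22, 8.20, 9.54 and 10.04, Snap25, a gene of synaptic vesicle release, at 9.33, 9.38, 10.14 and 10.36, and the neurofilament gene Nefl at 6.30, 6.40, 7.53 and 7.31. The pan-neuronal gene Rbfox3 was at 7.29, 7.13, 7.45 and 7.44.

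Endothelial genes ran against these lists. Of 36 general endothelial genes, 25 were lower on both arrays 3 and 4 than on both arrays 1 and 2 (69.4%, against 22.8% of all genes) and 1 was higher. The list mean was 9.84, 9.89, 9.64 and 9.53. Of 28 barrier transport genes, 16 were lower on both and 4 higher, with means of 9.85, 9.90, 9.64 and 9.46. Array 4 was the lowest by at least 0.5 in 2 of the endothelial and 5 of the barrier genes, against 0.266% of all genes. The tight junction gene Cldn5 was at 10.82, 10.78, 10.45 and 10.12, the lipid transporter gene Mfsd2a at 10.25, 10.44, 9.71 and 9.66, and the carbonic anhydrase gene Car4, the widest in the list, at 9.93, 10.05, 9.13 and 8.98. Pericyte genes were lower on both in 10 of 20 cases (50%, against 22.8% of all genes). Smooth muscle genes were higher on both in 15 of 25 (60%, against 31.1% of all genes). Either list had 0 at a range of at least 1, which for lists of this size is near the 1.31% of all genes. Over all genes the median of the mean of arrays 3 and 4 minus that of arrays 1 and 2 was 0.02. Choroid plexus, cilia, meningeal, fibroblast and macrophage lists were thus high on the arrays where endothelial lists were low, and their part in the endothelial values was not tested.

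**Figure D3:**
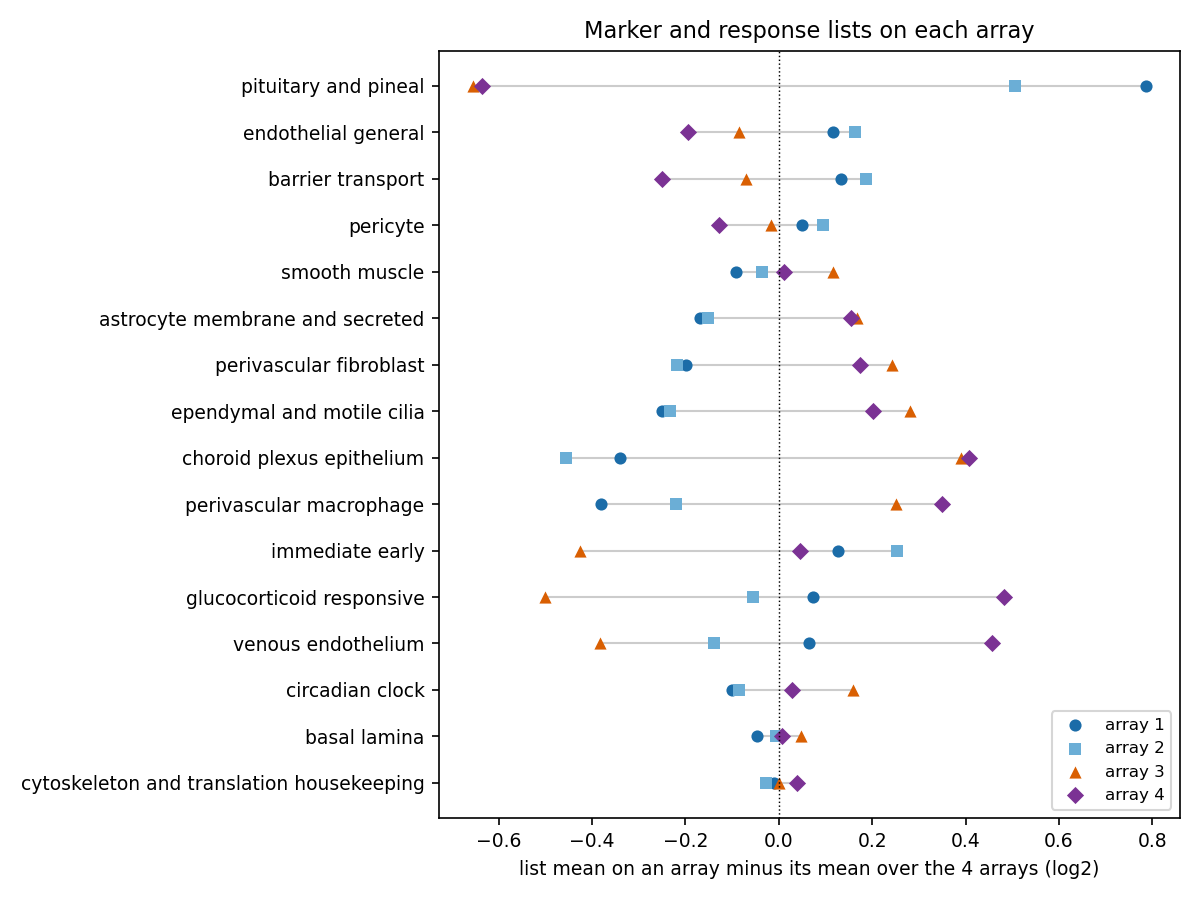
Mean of each list on an array minus the list's mean over the 4 arrays (log2, x axis), for 16 lists, with 1 symbol per array. Pituitary genes are high on arrays 1 and 2, choroid plexus and macrophage genes on arrays 3 and 4, immediate early genes low on array 3 and glucocorticoid responsive genes low on array 3 and high on array 4.

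Array 4 stood highest for a set of inflammatory and venous endothelial genes. Lcn2, a siderophore-binding acute phase protein, was at 9.20, 8.29, 7.95 and 10.78. Ackr1, the atypical chemokine receptor gene of venules, was at 7.44, 7.05, 6.82 and 9.17, Lrg1, a glycoprotein gene of activated endothelium, at 6.41, 6.19, 6.90 and 8.42, and Serpina3n, a protease inhibitor gene, at 6.68, 6.55, 6.84 and 8.75. Array 4 exceeded the next array by 1.53 to 1.91 for the last 3. The endotoxin co-receptor gene Cd14 was at 5.52, 5.60, 5.51 and 7.50, P-selectin (Selp) at 5.97, 5.54, 5.46 and 7.25, and the interleukin 1 receptor gene Il1r1 at 9.55, 9.53, 9.48 and 10.78. In these 3 the other arrays lay within 0.51 of each other.

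Array 4 was higher than every other array by at least 0.5 in 5 of 14 venous endothelial genes, 5 of 18 acute phase and inflammatory genes and 7 of 18 glucocorticoid responsive genes, against 0.384% of all genes above background. The venous and acute phase lists share 6 genes, and the glucocorticoid responsive list shares Lcn2 with both, so the counts are not separate. Of the 5 venous genes in no other list, 2 had a range of at least 1. The venous list had 8 genes with a range of at least 1 (57.1%, against 1.31% of all), and 4 such genes without array 4, but its most abundant members Vcam1 (10.47 to 10.73) and Vwf (10.25 to 10.52) were steady. Not every adhesion gene followed, since Icam1 was highest on array 1 (9.03, 8.47, 7.70 and 8.24). Interferon stimulated genes had 0 of 17 with a range of at least 1, a count near the 1.31% of all genes. Of these 17, 10 were lower on both arrays 3 and 4 (58.8%, against 22.8% of all genes) and 4 higher. The neutrophil gene S100a8 was under the floor on every array, while 4 of 16 neutrophil and monocyte genes had means above it.

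**Figure D4:**
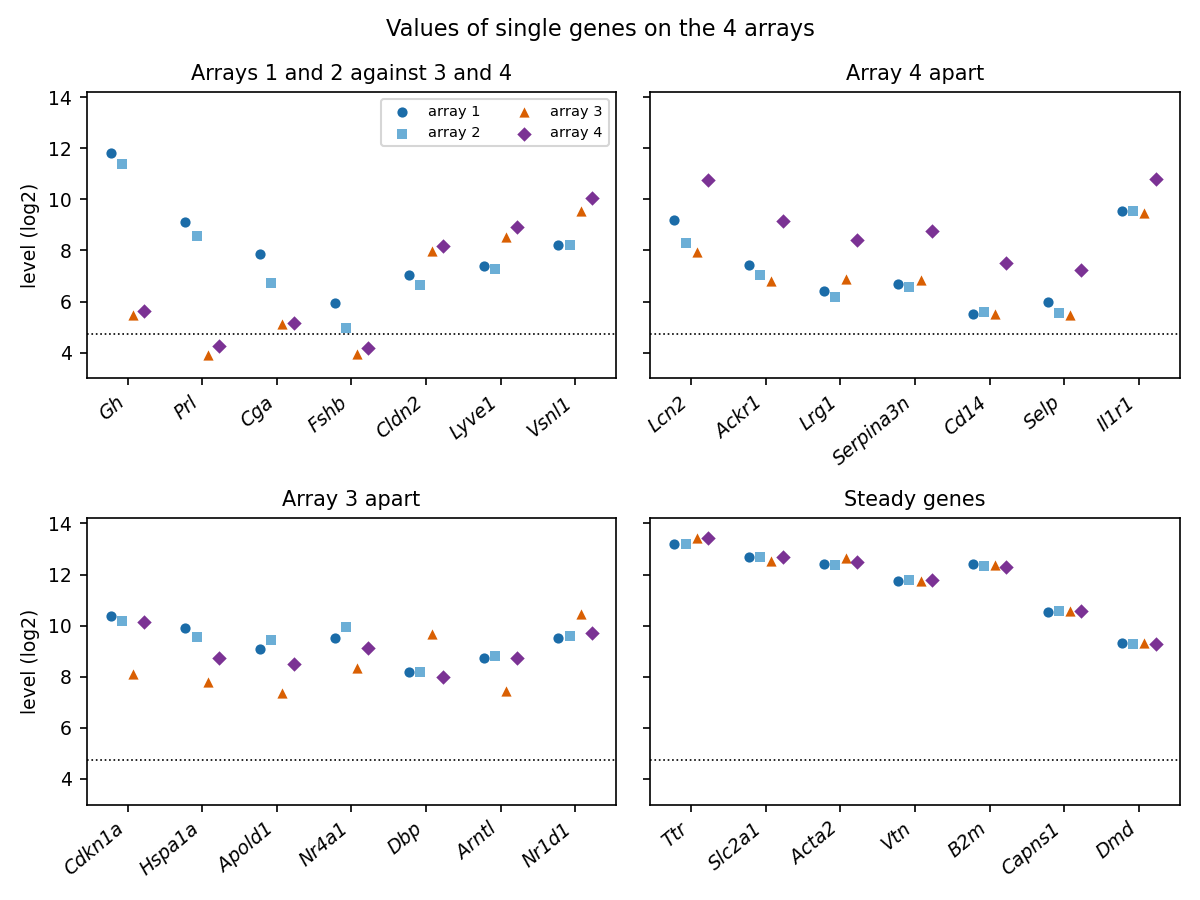
Log2 levels (y axis) of single genes on the 4 arrays, in 4 panels by the arrays that stand apart, with steady genes in the last. The dotted line is the background floor of 4.73. Gh lies at 11.82 and 11.40 on arrays 1 and 2 and at 5.47 and 5.62 on arrays 3 and 4, and Cdkn1a is lowest on array 3.

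Array 3 stood lowest for most immediate early genes and for a few stress genes. Cdkn1a, a cyclin-dependent kinase inhibitor gene, was at 10.36, 10.20, 8.10 and 10.15, so that arrays 1, 2 and 4 agreed within 0.22 and array 3 lay 2.05 under the nearest of them. Apold1, an early response gene of endothelium, was at 9.09, 9.45, 7.37 and 8.48, and the nuclear receptor gene Nr4a1 at 9.51, 9.96, 8.33 and 9.11. The inducible heat shock genes Hspa1a (9.93, 9.57, 7.80 and 8.74) and Hspa1b (8.92, 8.20, 6.48 and 7.80) had the same order of arrays, and as they are near-identical copies the array may not separate them. They were the 2 of 16 heat shock genes low on array 3 by at least 0.5, while 6 of the 16 were higher on both arrays 3 and 4, and 8 had their lowest value on array 2 against 6 on array 3. Ch25h, the cholesterol 25-hydroxylase gene, was lowest on array 3 and highest on array 4 (8.82, 8.39, 6.95 and 9.75), a range of 2.80 that became 1.42 when its clusters were averaged.

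Of 29 immediate early genes, 9 were lower on array 3 than on every other array by at least 0.5, against 0.75% of all genes above background, and 26 had their lowest value there (89.7%, against 24.2% of all genes). The list mean was 7.90, 8.03, 7.35 and 7.82. Jun was at 9.50, 9.74, 8.41 and 9.02, and Dusp1, a phosphatase gene that ends MAP kinase signals, at 9.80, 9.97, 8.67 and 9.57. Egr1, another early gene, was at 7.30, 7.63, 7.31 and 7.25 and did not share the pattern, and Fos was at 6.10, 6.66, 5.80 and 6.30. Of 18 glucocorticoid responsive genes, 6 were low on array 3 by this margin, 7 were high on array 4, and 8 had a range of at least 1 (44.4%, against 1.31% of all genes). Their list means were 8.68, 8.55, 8.10 and 9.09. Without array 3, 0 immediate early genes and 3 glucocorticoid responsive genes had a range of at least 1, and over all genes 95 in place of 211. Without array 4, 5 glucocorticoid responsive genes did. Angptl4, a lipase inhibitor gene, was at 7.33, 7.08, 6.01 and 8.46, and Zbtb16 at 8.49, 8.29, 7.79 and 9.33, while Tsc22d3 (7.02 to 7.34) and Sgk1 (8.46 to 8.90) varied little.

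Clock genes also set array 3 apart. The molecular clock runs on ARNTL with CLOCK, which drive Per and Nr1d genes and the PAR factor genes Dbp and Tef through E-boxes, while NR1D1 represses Arntl at ROR elements. Of 16 clock genes, 7 were higher on array 3 than on every other array by at least 0.5 (0.291% of all genes), namely Dbp, Nr1d1, Nr1d2, Per3, Tef, Ciart and Bhlhe41, and Arntl and Per1 were lower there by that margin. Dbp was at 8.18, 8.20, 9.66 and 8.01, Nr1d1 at 9.52, 9.59, 10.45 and 9.70, and Per3 at 7.65, 7.58, 8.58 and 7.82. Arntl was at 8.75, 8.80, 7.46 and 8.73 and Per1 at 9.68, 9.69, 9.03 and 9.53. Arrays 1, 2 and 4 thus lay within 0.24 of each other for Dbp, Nr1d1, Per3, Arntl and Per1, and Nfil3, a repressor gene at D-boxes, was lowest on array 3 and highest on array 4 (6.15, 6.41, 5.68 and 6.92). Clock itself had a range of 0.20. Without array 3, 0 of the 16 had a range of at least 1. The labels give no time of day, and its part in this was not tested.

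Promoters of 4 clock genes (the RefSeq window around the start, GRCm38.p6) are shown, those whose windows hold an E-box 3 times, a D-box or a ROR element. Capitals mark the matches on either strand. The E-box CACGTG is in 7.15% of 32851 promoters and is found 3 times in that of Ciart, a clock repressor gene (chr3:95882179-95882478, minus strand). The D-box TTATGTAA is in 0.938% and is found 2 times in that of Per3 (chr4:151044616-151044915, minus strand). The ROR element TAGGTCA is in 2.61% and is found 1 time each in those of Arntl (chr7:113207261-113207560, plus strand) and Nfil3 (chr13:52980990-52981289, minus strand).
Ciart promoter: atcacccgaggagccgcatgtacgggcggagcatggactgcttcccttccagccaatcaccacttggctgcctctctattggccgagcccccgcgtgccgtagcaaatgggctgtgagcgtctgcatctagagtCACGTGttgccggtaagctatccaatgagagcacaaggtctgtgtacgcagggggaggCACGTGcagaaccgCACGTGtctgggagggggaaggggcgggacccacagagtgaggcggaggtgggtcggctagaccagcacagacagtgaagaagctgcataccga
Per3 promoter: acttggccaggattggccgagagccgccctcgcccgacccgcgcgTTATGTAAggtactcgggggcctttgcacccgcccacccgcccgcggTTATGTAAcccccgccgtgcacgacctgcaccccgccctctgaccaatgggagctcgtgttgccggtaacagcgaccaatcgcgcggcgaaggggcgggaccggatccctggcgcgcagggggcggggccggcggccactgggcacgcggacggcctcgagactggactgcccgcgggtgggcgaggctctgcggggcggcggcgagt
Arntl promoter: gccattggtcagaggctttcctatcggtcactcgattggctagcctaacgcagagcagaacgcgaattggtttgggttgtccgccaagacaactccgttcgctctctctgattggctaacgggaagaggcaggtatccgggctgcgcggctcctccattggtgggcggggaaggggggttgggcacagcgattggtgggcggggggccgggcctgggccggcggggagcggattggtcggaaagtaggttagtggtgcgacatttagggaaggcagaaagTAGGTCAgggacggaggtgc
Nfil3 promoter: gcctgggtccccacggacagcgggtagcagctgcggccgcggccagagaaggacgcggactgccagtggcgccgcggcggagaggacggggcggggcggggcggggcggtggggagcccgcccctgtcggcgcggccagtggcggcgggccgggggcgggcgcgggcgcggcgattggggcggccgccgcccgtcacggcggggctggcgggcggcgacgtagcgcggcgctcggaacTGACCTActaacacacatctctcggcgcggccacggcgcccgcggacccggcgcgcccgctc
Other clock genes with an E-box in this window were Per1, Bhlhe41, Cry1 and Tef, so that Per1, low on array 3, carries the letters too. The windows of Dbp and Nr1d1 hold none of the 3 motifs, which says only that these letters are not in this stretch.

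Small RNA genes varied more often than protein-coding ones. A range of at least 1 was found in 21 of 75 snoRNA genes above background (28.0%), in 21 of 243 miRNA genes (8.64%) and in 159 of 14524 protein-coding genes (1.09%). Without array 3 these counts were 7, 8 and 77. Small nucleolar RNAs guide the chemical modification of ribosomal and other RNAs and are mostly cut from introns of host genes. Of the 75, 56 were lower on both arrays 3 and 4 (against 22.8% of all genes) and 59 had their lowest value on array 3 (against 24.2% of all genes), with means of 8.79, 8.78, 8.14 and 8.44. Snord99 was at 11.24, 11.13, 9.03 and 10.05, Snora75 at 8.24, 7.98, 6.43 and 6.63, and Snora62 at 9.86, 9.85, 8.49 and 8.78.

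Their host genes did not spread in the same measure. Of the 21 variable snoRNAs, 19 lie in a gene above background, with a median range of 1.33 over these 19 and of 0.24 over their 13 hosts. The 19 were chosen for a range of at least 1 and the hosts were not, so that choice widens the gap. Over all 61 snoRNAs with a host above background the median range was 0.724, and over their 44 hosts it was 0.215. Rpsa, which encodes a ribosomal protein and holds Snora62, was at 8.90, 8.98, 8.94 and 8.86, Ncl, the nucleolin gene that holds Snora75, was at 8.53, 8.65, 8.81 and 8.84, with arrays 3 and 4 above and not below, and Snhg12, which holds Snord99, was at 5.39, 5.75, 5.83 and 5.57. Over all pairs with a host above background, the snoRNA had the larger range in 53 of 61 and the miRNA in 101 of 144. Hosts were found by gene span and without strand, and a cluster inside a host can also read the host's unspliced transcript.

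**Figure D5:**
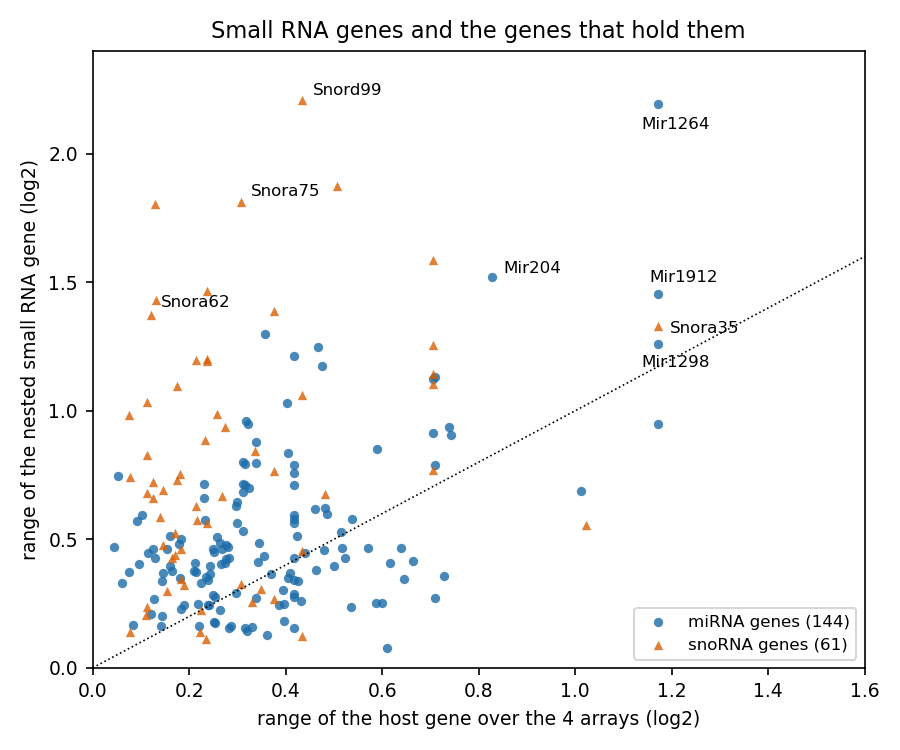
Range over the 4 arrays (log2) of 61 snoRNA and 144 miRNA genes (y axis) against that of the gene that holds each (x axis). The dotted line marks equal ranges, and 53 snoRNA and 101 miRNA genes lie above it.

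At the Htr2c locus host and nested RNAs were all higher on arrays 3 and 4, and of the 13 hosts above Htr2c was the 1 with a range of at least 1. Htr2c was at 9.23, 9.09, 10.26 and 10.12. The 5 small RNA genes measured within it, Mir1264 (6.18, 5.65, 7.85 and 7.44), Mir1912 (8.57, 8.49, 9.94 and 9.47), Mir1298 (5.25, 5.28, 6.51 and 6.11), Mir764 (7.55, 7.76, 8.50 and 8.16) and Snora35 (9.24, 8.79, 10.12 and 9.89), all had arrays 3 and 4 above arrays 1 and 2. The choroid plexus list had the same division of arrays, and Htr2c is known as an abundant receptor gene of that epithelium. Mir204 (7.91, 7.66, 8.81 and 9.18) and its host Trpm3 (10.73, 10.59, 11.42 and 11.41) were divided in the same way. On chromosome 12, 31 of 41 miRNA genes and 6 of 6 snoRNA genes above background were lowest on array 3, as were 24.2% of all genes and 59 of the 75 snoRNA genes. There Mir154 was at 5.39, 5.90, 4.37 and 4.92, Mir376b at 6.88, 7.02, 5.72 and 6.29 and Mir341 at 8.97, 9.22, 8.09 and 8.76, and Rian, a long non-coding RNA that holds Mir341, at 9.37, 9.37, 8.66 and 9.21. The Htr2c, Trpm3 and chromosome 12 genes were named after their values were seen.

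A few abundant genes hardly varied. Of genes in the top 10% of levels, the 10 steadiest included the pericyte gene Vtn, which encodes vitronectin, at 11.76, 11.78, 11.77 and 11.77, Dmd, the dystrophin gene of endfeet and smooth muscle, at 9.31, 9.29, 9.30 and 9.29, and Dync1h1, the dynein motor gene, at 10.20, 10.19, 10.19 and 10.18. Housekeeping genes (0 of 16), basal lamina genes (0 of 22), cytosolic ribosomal protein genes (0 of 55) and oxidative phosphorylation genes (0 of 64) had no member with a range of at least 1. That range was reached by 1.31% of all genes, so a count of 0 in lists of this size is near that share. The list means of housekeeping genes had a range of 0.07 over the arrays, those of mitochondrially encoded genes 0.08, those of ribosomal protein genes 0.08 and those of basal lamina genes 0.09. Oxidative phosphorylation genes had list means of 7.95, 7.95, 8.10 and 8.10, and 39 of the 64 were higher on both arrays 3 and 4 (60.9%, against 31.1% of all genes). Of the 55 ribosomal protein genes, 24 were lower on both arrays 3 and 4 (43.6%, against 22.8% of all genes) and 2 higher.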

How the data were processed

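Libraries were hybridized by the authors to Mouse Gene 2.0 arrays (Affymetrix), 1 per array. Their methods describe checks in Expression Console, the EASANA and FAST DB systems, an antigenomic background and quantile scaling. Log2 values were deposited for each transcript cluster and were used as they stand. Whether these were so scaled, and by which program, is not given in the sources used here.

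Of 41345 clusters, 23521 had 1 gene symbol in the platform annotation, 1820 several and 16004 none, and 23328 Entrez identifiers matched RefSeq (GRCm38.p6). Each gene took its cluster of highest mean (1082 genes had several). Named by rule were the 20 genes of highest level, the 20 of largest range, the 10 of largest SD for their level, 2 by level and 2 by range per list, 10 steady ones and those of the study's text. Others, such as Htr2c, Cdh5, Mrc1, Il1r1, Jun, Per3 and S100a8, were named after their values were seen. The members and 37 gene lists were chosen with earlier results of these data known. The margin of 0.5 and the division of arrays 1 and 2 against 3 and 4 followed the values. Steps were tested on simulated data, with Python 3.11.15, numpy 2.4.6, pandas 2.3.3 and matplotlib 3.10.9. Alternatives were median centring, quantile normalization, another or no floor, the mean of all clusters, other thresholds and leaving out each array.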

Additional observations from a re-analysis of the deposited data

Results flagged for a closer look

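In each gene below, 1 array stood apart from the other 3 by more than Dixon's 95% critical value, which chance gives in about 1 in 20 groups and that 4.66% of all 16142 genes showed. The critical value was passed by 14 of 235 genes checked and by 1 of 37 list means. Some of the 235 genes were chosen for a large range. Values are the gap to the nearest array divided by the whole range. Of the widely spread genes, array 4 was high for Cd14 (0.955), Serpina3n (0.869) and Il1r1 (0.943), and array 3 stood apart for Arntl (0.950, low), Cdkn1a (0.905, low) and Dbp (0.883, high).

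The others had a range under 1. These were Fcgrt (0.971), the neonatal Fc receptor gene, low on array 4, Slc2a1 (0.931), the oxidative phosphorylation gene Atp5j2 (0.868), both low on array 3, Eef1a1 (0.846), high on array 4, Gfap (0.840) and Mog (0.907), both high on array 3, Egr1 (0.854), high on array 2, and Vtn (0.905), high on array 2 with a range of 0.02. Among the 37 list means, that of arterial endothelium was apart (0.836), at 8.83, 8.85 and 8.87 on arrays 1 to 3 and 8.65 on array 4.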

How the results depend on the processing

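Results without a test were compared by size. Of 258 main values under settings other than leaving out an array, 248 moved by less than the spread between arrays. Many of these values are median percentiles of lists, which by construction cannot change with the floor or with median centring. The count of 248 is therefore not a measure of robustness. For counts of genes the limit was 1.5 times. None of these values has a sign, so directions were not checked. The 211 genes with a range of at least 1 became 43 at a range of at least 1.5 and 1815 at a range of at least 1.5-fold, which are other thresholds by construction. When clusters of a gene were averaged, median percentiles were 91.5 for perivascular fibroblast, 80.7 for astrocyte intracellular, 32.9 for striated muscle, 58.7 for ribosomal protein, 99.97 for mitochondrially encoded, 84.1 for clock, 83.7 for hypoxia and 93.8 for housekeeping genes, and the cause was not tested. Averaging also gave Slc2a1 a level of 9.40 and Ch25h one of 6.86, took the range of Ch25h from 2.80 to 1.42 and that of Dpep2 from 1.98 to 0.956.

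Leaving out each array in turn gave 95 (without array 3) to 174 (without array 1) genes with a range of at least 1. Ranges of list means were 0.207 to 0.678 for immediate early genes, 0.537 to 0.982 for glucocorticoid responsive genes and 0.129 to 0.260 for clock genes, each lowest without array 3. Median percentiles were 23.1 to 24.2 for lymphocyte genes and 82.6 to 84.1 for clock genes. The division of arrays has no value over 3 arrays. No paired analysis was possible because the 4 arrays form 1 group and no result comes from a test. Values near the floor are limited by background signal.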
